A study of Mus musculus with 6 samples.

Results

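The Frizzled receptors are the 10 genes Fzd1 to Fzd10, taken by symbol from a table of 23420 genes measured by RNA sequencing of mouse aortic root, the stretch of aorta that holds the valve and adjoins the heart. The mice were of C57BL6/J background and carried the genotype label Sost-/- (3 libraries) or Sost+/+ (3 libraries). Both groups ate standard chow to 4 months of age, then a high-cholesterol diet for 8 months, and their roots were taken at 12 months. The labels give 3 roots a group but identify no animal and do not say how the Sost allele was made. The p-values therefore reflect only how much these roots varied. All 10 genes were in the table and passed the filter on low counts, which kept 15096 genes.

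Frizzled proteins span the cell membrane with a bundle of helices and bind Wnt ligands through a cysteine-rich domain outside the cell. With the co-receptors Lrp5 and Lrp6 they lead to stabilised beta-catenin, and with other partners they act on cell polarity and calcium. Sclerostin, the product of Sost, is a secreted antagonist that binds Lrp5 and Lrp6, so it acts at the co-receptor and not on the Frizzled protein itself. The comparison asks how the receptor genes for Wnt stood in roots labelled as lacking that antagonist.

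Sost itself was not lower in the libraries labelled Sost-/-. Its transcript had 2284, 1063 and 513 counts in the libraries labelled Sost-/-, against 354, 621 and 274 counts in those labelled Sost+/+ (log2 fold change 1.56, SE 0.48, edgeR adjusted p = 0.124). The groups overlapped, since Sost-/- 3 was below Sost+/+ 2, and how the allele was made is not given. Each direction below is therefore tied to the genotype label alone. Total counts ran from 38870673 to 41803775 in the libraries labelled Sost-/- and from 37023586 to 48172863 in those labelled Sost+/+. Levels are given as CPM, counts scaled to library size with TMM factors. Of all 15096 tested genes, edgeR called 2.18% higher and 0.371% lower at an adjusted p under 0.05. At an unadjusted p under 0.05, 11.6% were higher. The log2 fold change was above 0 in 51.3% of them. Smooth muscle markers differed in the same libraries, with 8 of 10 called higher (median log2 fold change 1.59) and a summed level of 3963 to 6041 CPM in the libraries labelled Sost-/- against 1325 to 2625 CPM in those labelled Sost+/+. Cardiomyocyte markers lay below 0 on the log2 scale in 10 of 10 cases and 0 passed (median -0.45), with summed levels of 54830 to 69670 CPM in the libraries labelled Sost-/-, against 82340 to 88910 CPM in those labelled Sost+/+. The summed levels of fibroblast markers (4192 to 5060 CPM in the libraries labelled Sost-/-, 3834 to 4061 CPM in those labelled Sost+/+) and of Schwann cell markers (191.1 to 233 CPM, against 179 to 190.6 CPM) did not overlap either, although 0 of 10 and 0 of 8 passed. Most of the Schwann cell sum was the marker Pmp22, whose groups overlapped. It stood at 134.1, 146.9 and 148.8 CPM in the libraries labelled Sost-/-, against 133.8, 132.2 and 134.7 CPM in those labelled Sost+/+. Adipocyte markers had log2 fold changes above 0 in 8 of 8 cases (median 1.38). Of these, 6 had an unadjusted p under 0.05 and 0 passed, and their summed level overlapped, at 589.9 to 1343 CPM in the libraries labelled Sost-/-, against 437 to 819 CPM in those labelled Sost+/+. Endothelial markers (median -0.071) and macrophage markers (median -0.0089) overlapped in summed level too, with 0 called. No marker of these 7 lists was at 0 in all libraries. In bulk tissue, more cells of a type and more RNA per cell cannot be told apart.

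The sequences group the family. Translated GENCODE M21 coding sequences (build GRCm38) were aligned in all 45 pairs, and identity ran from 37.3% between Fzd4 and Fzd6 to 81.6% between Fzd1 and Fzd7. Fzd1 and Fzd2 were identical at 81.4% of aligned residues and Fzd2 and Fzd7 at 79.4%, Fzd5 and Fzd8 at 71.0%, and Fzd9 and Fzd10 at 67.0%. Fzd4 is placed here with Fzd9 (53.9%) and Fzd10 (54.9%), and Fzd3 with Fzd6 (53.0%), as the known subfamilies have it. A sequence common to the family is the binding site for Dishevelled, the cytoplasmic adaptor, just after the last membrane helix: a lysine and a threonine, then any 3 residues, then a tryptophan. It was found once in each of the 10 proteins. The 18 bases that encode it are shown because they carry the link from receptor to adaptor. Capitals mark the lysine, threonine and tryptophan codons, each sequence runs 5′ to 3′ on the gene's strand, and the stretch of Fzd8 is not printed.
Fzd1: AAGACActgaattccTGG
Fzd2: AAGACActgcactcgTGG
Fzd7: AAGACCctgcagtcaTGG
Fzd5: AAGACTctggagtctTGG
Fzd4: AAAACTcttcacacgTGG
Fzd9: AAGACTtttcagactTGG
Fzd10: AAGACCctgcagtccTGG
Fzd3: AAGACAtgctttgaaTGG
Fzd6: AAGACGtgcacagaaTGG
These lie at chr5:4755706-4755723 (Fzd1), chr11:102606373-102606390 (Fzd2), chr1:59484607-59484624 (Fzd7), chr1:64735011-64735028 (Fzd5), chr7:89408241-89408258 (Fzd4), chr5:135249416-135249433 (Fzd9), chr5:128602796-128602813 (Fzd10), chr14:65212107-65212124 (Fzd3) and chr15:39033949-39033966 (Fzd6), with Fzd1, Fzd3, Fzd5 and Fzd9 on the minus strand. What follows the motif differs between subfamilies: 17 residues remain in Fzd1, Fzd2 and Fzd7, while 159 remain in Fzd3 and 206 in Fzd6.

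The gene models bear on the counts. Of the 10 genes, 6 have 1 exon in GENCODE M21 and a seventh, Fzd5, has its coding sequence in 1 exon, so reads within the single-exon genes cannot show splicing. The longest stretch of bases that any pair of transcripts shared exactly was 47, between Fzd1 and Fzd2 and between Fzd1 and Fzd7. A read confined to such a stretch could belong to either paralog, and the read length is not given in the sources used here. Exons of Fzd5 overlap the opposite-strand gene model Gm38058 over 1233 bases, and those of Fzd6 overlap Gm26704 over 152 bases. The strand setting of the counting is not given either, so reads there may not be told apart.

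Fzd1 had the highest level per length in each of the 6 libraries. Levels between genes are compared only as CPM per kb of exon, the CPM divided by exonic length. Fzd1 averaged 12.3 ± 2.05 CPM per kb in the libraries labelled Sost-/-, against 8.66 ± 0.856 CPM per kb in those labelled Sost+/+ (SD, n = 3 each), above 72.1% of the 14945 tested genes that had a length. Next came Fzd2, with a mean of 9.05 CPM per kb in the libraries labelled Sost-/-, against 6.66 in those labelled Sost+/+. Fzd7 followed with a mean of 8.85 CPM per kb in the libraries labelled Sost-/-, against 6.18 in those labelled Sost+/+. These neighbours did not keep 1 order: Fzd2 was above Fzd7 in 4 of 6 libraries. Fzd4 averaged 6.56 ± 0.723 CPM per kb in the libraries labelled Sost-/-, against 5.33 ± 0.543 CPM per kb in those labelled Sost+/+, below Fzd7 in 6 of 6 libraries. Fzd6 averaged 5.54 ± 0.764 CPM per kb in the libraries labelled Sost-/-, against 5.29 ± 0.204 CPM per kb in those labelled Sost+/+, and Fzd4 was above it in 4 of 6 libraries.

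A gap followed these 5 genes. Fzd8 came sixth in every library with 2.005 ± 0.258 CPM per kb in the libraries labelled Sost-/-, against 1.57 ± 0.123 CPM per kb in those labelled Sost+/+, and its range of 1.47 to 2.30 CPM per kb over 6 libraries did not reach the 4.81 CPM per kb that was lowest for Fzd6. Fzd5 averaged 1.17 CPM per kb in the libraries labelled Sost-/-, against 0.898 in those labelled Sost+/+. Fzd9 averaged 0.876 CPM per kb in the libraries labelled Sost-/-, against 0.893 in those labelled Sost+/+, and Fzd5 was above it in 5 of 6 libraries. Fzd10 and Fzd3 were lowest, each under 0.46 CPM per kb in all 6 libraries and above only 8.97% and 7.79% of tested genes, and they exchanged places between libraries. The level of Fzd3 per length rests on a gene model of 12.8 kb of exon.

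**Figure D1:**
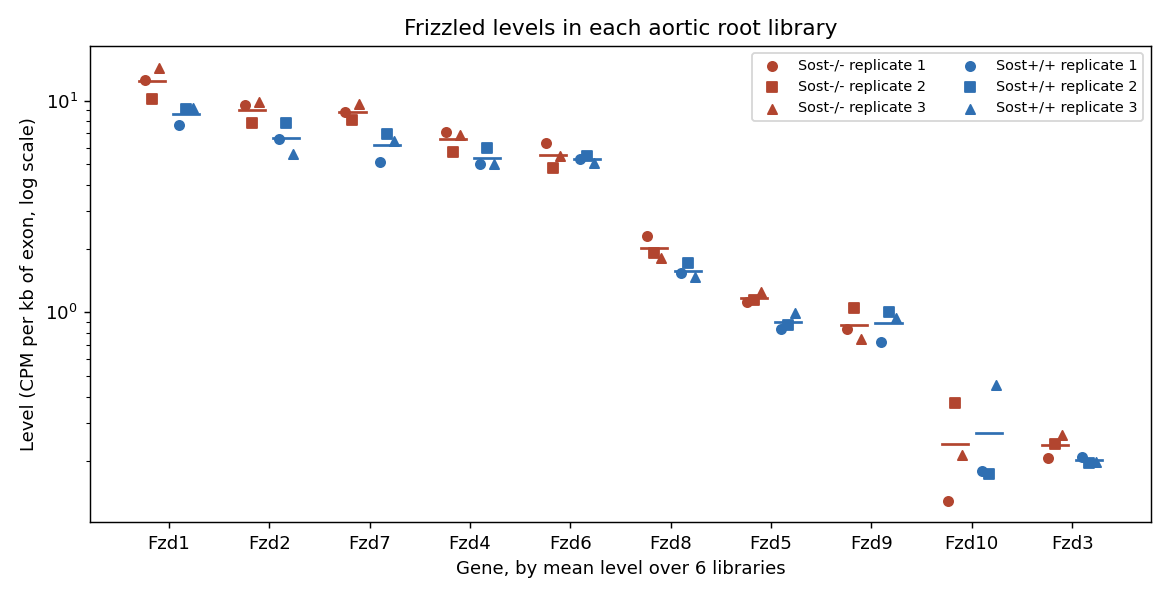
Level of each Frizzled gene in CPM per kb of exon (log axis) in the 3 libraries labelled Sost-/- (left of each gene) and the 3 labelled Sost+/+ (right), with lines at the group means. Fzd1, Fzd2, Fzd7, Fzd4 and Fzd6 lie above 4.8 CPM per kb in all 6 libraries, and Fzd8, Fzd5, Fzd9, Fzd10 and Fzd3 below 2.3 CPM per kb.

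None of the 10 receptor genes passed edgeR's quasi-likelihood test with Benjamini-Hochberg adjustment, while 2.55% of all tested genes did (385 of 15096 at an adjusted p under 0.05, with 2.18% higher and 0.371% lower). At an unadjusted p under 0.05, 6 of 10 were higher in the libraries labelled Sost-/- and none were lower, where 11.6% of all tested genes were higher and 20.2% were in either direction. DESeq2 called 2 of the 10 higher, Fzd7 (adjusted p = 0.00912) and Fzd1 (adjusted p = 0.0141), where it called 5.31% of its tested genes higher and 8.31% in either direction. Both of these calls ended without the library Sost+/+ 1 (adjusted p = 0.0631 and 0.137) and without Sost-/- 3 (adjusted p = 0.162 and 0.227). No other library was left out in DESeq2, and these were chosen after the data were seen. The median log2 fold change of the 10 was 0.33, against 0.0066 for all tested genes, and 8 of 10 values were above 0, where 51.3% of all tested genes were. In 5 of 10 every library labelled Sost-/- was above every library labelled Sost+/+ in TMM-scaled CPM, which held for 14.3% of tested genes. With either direction counted, 25.4% of tested genes did not overlap. In the deposited normalized signal the count was 4 of 10, without Fzd2. The 10 genes were chosen with earlier results of these data known, so these shares describe them and test no excess.

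Fzd1, Fzd2 and Fzd7, the closest paralogs, had the 3 largest log2 fold changes of the family with all 6 libraries. Without Sost-/- 1 and without Sost+/+ 3, Fzd5 (0.41 and 0.45) stood above Fzd2 (0.40 and 0.32). Without Sost-/- 3, Fzd8 (0.42) stood above Fzd1 (0.39) and Fzd2 (0.38). Fzd7, a receptor of the canonical pathway, stood at 39.96, 36.6 and 43.7 CPM in the libraries labelled Sost-/-, against 23.3, 31.6 and 29.1 CPM in those labelled Sost+/+. The groups did not overlap, and Sost+/+ 1 was lowest. The log2 fold change was 0.52 (SE 0.12, 95% interval 0.24 to 0.80, edgeR adjusted p = 0.0661). Fzd1 stood at 52.2, 42.9 and 60.1 CPM in the libraries labelled Sost-/-, against 32.2, 38.2 and 38.6 CPM in those labelled Sost+/+. Again Sost-/- 3 was highest and Sost+/+ 1 lowest, with no overlap. Its log2 fold change was 0.51 (SE 0.13, 95% interval 0.21 to 0.81, edgeR adjusted p = 0.0832). Fzd2 held 34.8, 28.6 and 36.0 CPM in the libraries labelled Sost-/-, against 24.04, 28.6 and 20.5 CPM in those labelled Sost+/+. Here the replicates numbered 2 met at the same rounded value, and with the deposited scaling they crossed, with a normalized signal of 1163 in Sost-/- 2 and 1178 in Sost+/+ 2. The log2 fold change of Fzd2 was 0.44 (SE 0.14, 95% interval 0.13 to 0.75, edgeR adjusted p = 0.125).

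Fzd2 is a neighbour of Sost. It lies on chromosome 11 from 102604396 to 102608058 on the plus strand (GRCm38), 0.637 Mb from the nearer end of Sost, which spans 101962458 to 101967015 on the minus strand. Of 21 tested genes wholly between them 0 were called by edgeR, where 2.55% of all tested genes were, and 2 had an unadjusted p under 0.05, where 20.2% of all tested genes did. Their median log2 fold change was -0.021.

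Promoters of Fzd1 and Fzd7 are shown because these genes had the smallest p of the family and nearly equal log2 fold changes. RefSeq (GRCm38.p6) gave a window from 250 bases before to 50 after the start for 6 of the 10 genes. Capitals mark the TCF/LEF core CTTTGA, the CCAAT box CCAAT and the TATA box TATAAA, each searched on both strands, so a match on the minus strand is capitalised as its reverse complement. Both sequences run 5′ to 3′ on the gene's strand, Fzd1 from chr5:4758167-4758466 on the minus strand and Fzd7 from chr1:59481897-59482196 on the plus strand.
Fzd1: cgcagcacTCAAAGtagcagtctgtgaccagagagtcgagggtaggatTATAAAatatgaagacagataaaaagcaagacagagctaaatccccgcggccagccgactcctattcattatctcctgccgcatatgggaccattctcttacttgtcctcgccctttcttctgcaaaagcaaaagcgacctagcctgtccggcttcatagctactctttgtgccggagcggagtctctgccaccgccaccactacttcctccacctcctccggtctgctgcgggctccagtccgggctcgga
Fzd7: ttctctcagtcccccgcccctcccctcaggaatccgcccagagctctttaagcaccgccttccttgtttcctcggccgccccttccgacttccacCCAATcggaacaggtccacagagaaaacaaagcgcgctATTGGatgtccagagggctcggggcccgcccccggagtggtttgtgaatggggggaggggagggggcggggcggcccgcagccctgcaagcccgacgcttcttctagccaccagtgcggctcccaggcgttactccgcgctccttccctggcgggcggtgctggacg
Both windows lie wholly before the start of the GENCODE M21 gene model. Their contents were unlike. That of Fzd1 held 1 TCF/LEF core, present in 16.0% of 32841 RefSeq windows of the same length, and 1 TATA box, present in 13.6%. It held no GC box (GGGCGG), whereas the window of Fzd7 held 7 and 35.7% of all windows held at least 1. The window of Fzd7 also held 2 CCAAT boxes, present in 37.4%. Counted from the start, the TATA match of Fzd1 began at base -202 and its TCF/LEF match at -242. The CCAAT matches of Fzd7 began at -155 and -117. Fzd1 had 54.0% G and C with 16 CpG, and Fzd7 66.7% with 24 CpG, where the median window had 52.7% and 7. Among the other 4 windows, Fzd4 held 8 GC boxes and Fzd5 held 10, against 1 each in Fzd9 and Fzd10. The CArG box, the site named for serum response factor, was in none of the 6 windows and in 1.63% of all. GC boxes may overlap each other, and a match describes these letters only.

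Fzd5 and Fzd8, a pair of receptors close in sequence, had log2 fold changes above 0 that did not pass. Fzd5 stood at 7.71, 7.94 and 8.59 CPM in the libraries labelled Sost-/-, against 5.79, 6.002 and 6.83 CPM in those labelled Sost+/+. All 3 libraries labelled Sost-/- were above all 3 labelled Sost+/+. Its log2 fold change was 0.38 (SE 0.13, 95% interval 0.084 to 0.68, edgeR adjusted p = 0.158). Fzd8 stood at 13.7, 11.4 and 10.8 CPM in the libraries labelled Sost-/-, against 9.22, 10.2 and 8.76 CPM in those labelled Sost+/+. The gap between the nearest libraries, Sost-/- 3 and Sost+/+ 2, was smaller than the spread within either group. Fzd8 gave a log2 fold change of 0.35 (SE 0.13, 95% interval 0.055 to 0.65, edgeR adjusted p = 0.183).

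Fzd4 is the receptor of Norrin, a ligand outside the Wnt family, in vessel growth of the retina. It held 47.6, 38.6 and 46.1 CPM in the libraries labelled Sost-/-, against 33.7, 40.03 and 33.8 CPM in those labelled Sost+/+. The groups overlapped, since Sost-/- 2 was below Sost+/+ 2. The log2 fold change was 0.30 (SE 0.11, 95% interval 0.049 to 0.55, edgeR adjusted p = 0.181). Its relatives Fzd9 and Fzd10 had far fewer counts. Fzd9 had 72 to 97 counts in the libraries labelled Sost-/-, against 74 to 91 in those labelled Sost+/+, with overlap and a log2 fold change of -0.026 (SE 0.24, 95% interval -0.56 to 0.51, edgeR adjusted p = 0.964). Fzd10 had 18, 49 and 29 counts in the libraries labelled Sost-/-, against 26, 22 and 54 in those labelled Sost+/+. Within each group 1 library stood above the others, Sost-/- 2 and Sost+/+ 3, and the coefficient of variation was 51.7% in the libraries labelled Sost-/-, against 60.1% in those labelled Sost+/+. The interval of the log2 fold change of Fzd10, -1.31 to 0.97, spans 0 widely (edgeR adjusted p = 0.882). Low counts and the spread between libraries were not told apart here.

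Fzd3 and Fzd6 are the receptors best known for planar cell polarity, the alignment of cells within a sheet. Fzd6 held 30.5, 23.2 and 26.4 CPM in the libraries labelled Sost-/-, against 25.6, 26.4 and 24.4 CPM in those labelled Sost+/+. The highest and the lowest value both belonged to libraries labelled Sost-/-. The log2 fold change was 0.068 (SE 0.11, edgeR adjusted p = 0.770), with a 95% interval of -0.18 to 0.32. Whether it differed from the values of the other receptors was not tested. Fzd3 held 2.64, 3.06 and 3.39 CPM in the libraries labelled Sost-/-, against 2.67, 2.49 and 2.52 CPM in those labelled Sost+/+. Sost-/- 1 lay within the range of the libraries labelled Sost+/+. Its log2 fold change was 0.24 (SE 0.19, 95% interval -0.18 to 0.66, edgeR adjusted p = 0.500).

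**Figure D2:**
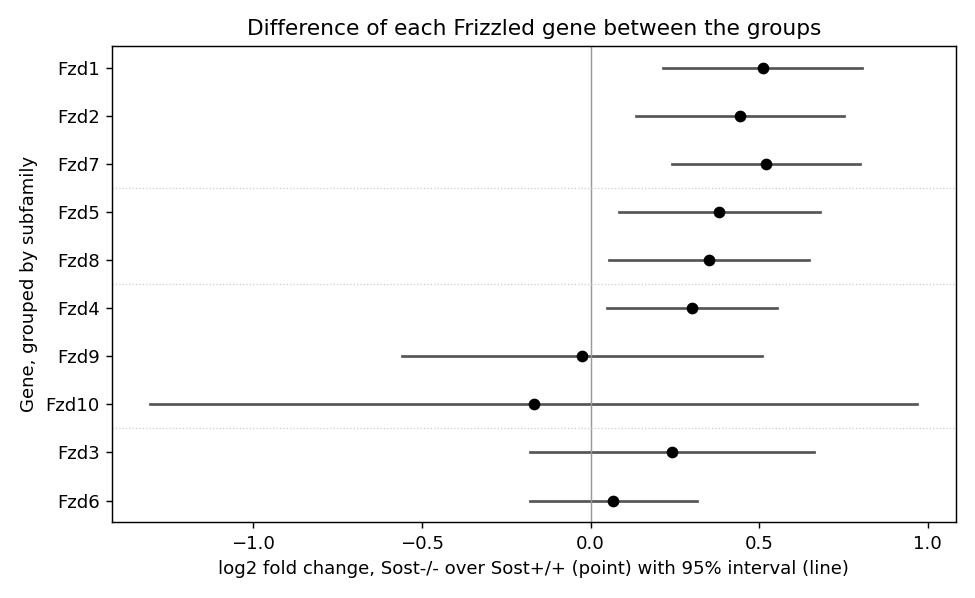
log2 fold change of each Frizzled gene, Sost-/- over Sost+/+, as a point with its 95% interval as a line, from the edgeR fit over 15096 genes. Genes are grouped by subfamily, and dotted lines separate the groups. The intervals of Fzd1, Fzd2, Fzd7, Fzd5, Fzd8 and Fzd4 lie above 0, and those of Fzd9, Fzd10, Fzd3 and Fzd6 cross it.

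Added over the 10 genes, the Frizzled level was 48.8, 41.4 and 50.4 CPM per kb in the libraries labelled Sost-/-, against 33.2, 39.3 and 35.4 CPM per kb in those labelled Sost+/+. The groups did not overlap. The mean was 46.9 ± 4.81 CPM per kb in the libraries labelled Sost-/-, against 35.95 ± 3.07 in those labelled Sost+/+ (SD, n = 3 each, ratio 1.30, two-sided exact permutation p = 0.1, the lowest value possible with 3 libraries a group). Fzd1, Fzd2 and Fzd7 together made up 64.4% ± 2.26 of the sum in the libraries labelled Sost-/-, against 59.7% ± 1.24 in those labelled Sost+/+ (two-sided exact permutation p = 0.1). Fzd3 and Fzd6 made up 12.3% ± 1.004 in the libraries labelled Sost-/-, against 15.3% ± 1.17 in those labelled Sost+/+ (two-sided exact permutation p = 0.1). Fzd4, Fzd9 and Fzd10 made up 16.4% ± 0.886 in the libraries labelled Sost-/-, against 18.05% ± 0.217 in those labelled Sost+/+ (two-sided exact permutation p = 0.1). The levels behind these smaller shares were not lower on average: Fzd3 and Fzd6 summed to 5.78 ± 0.747 CPM per kb in the libraries labelled Sost-/-, against 5.49 ± 0.204 in those labelled Sost+/+, and Fzd4, Fzd9 and Fzd10 to 7.68 ± 0.468 CPM per kb in the libraries labelled Sost-/-, against 6.49 ± 0.616 in those labelled Sost+/+. Fzd1, Fzd2 and Fzd7 summed to 30.2 ± 3.86 CPM per kb in the libraries labelled Sost-/-, against 21.5 ± 2.26 in those labelled Sost+/+. Fzd5 and Fzd8 held 6.81% in the libraries labelled Sost-/-, against 6.89% in those labelled Sost+/+ (two-sided exact permutation p = 0.9). The p-values of these subfamily shares were not adjusted. The share of Fzd6 alone was 12.98%, 11.6% and 10.9% in the libraries labelled Sost-/-, against 16.0%, 13.9% and 14.3% in those labelled Sost+/+, with no overlap (two-sided exact permutation p = 0.1, adjusted p = 0.5 over the 10 shares compared). Of the 10 shares, that of Fzd6 was the 1 without overlap between the groups. The shares of Fzd4, Fzd7 and Fzd9 had the same adjusted p. Shares within a library add up to the whole, so they are not independent of each other. Shares do not depend on how the libraries were scaled to each other. The part of the smooth muscle and cardiomyocyte markers, which differ between the same libraries, in the Frizzled values was not tested.

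**Figure D3:**
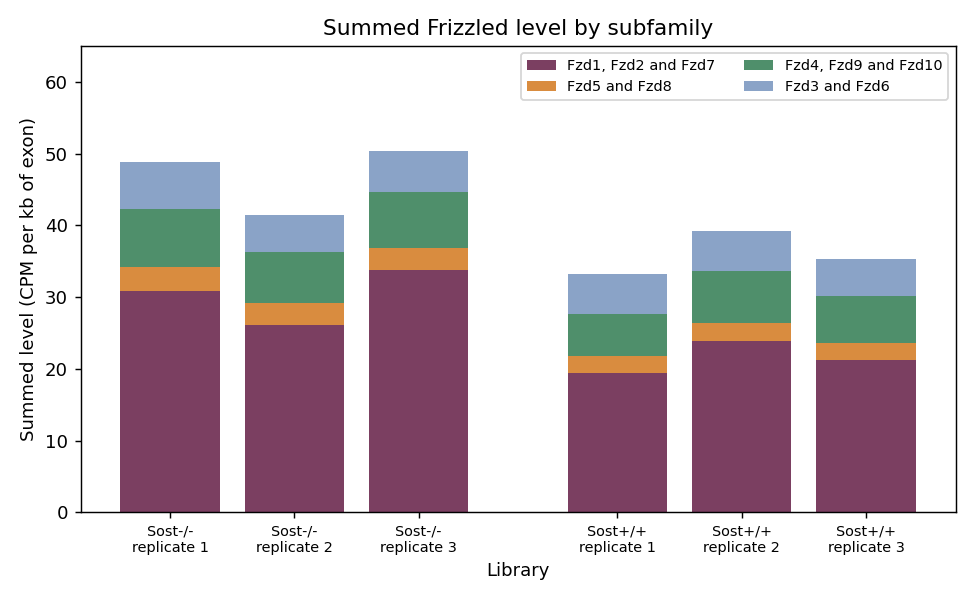
Summed level of the 10 Frizzled genes in CPM per kb of exon in each library, divided by subfamily, with the 3 libraries labelled Sost-/- on the left and the 3 labelled Sost+/+ on the right. The sums run from 41.4 to 50.4 CPM per kb in the libraries labelled Sost-/-, against 33.2 to 39.3 in those labelled Sost+/+, and Fzd1, Fzd2 and Fzd7 make up the largest part of each bar.

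Some genes followed Fzd1 and Fzd7 more closely than other Frizzled genes did. Likeness was the root mean square difference between log2 CPM profiles over the 6 libraries, each centred on its own mean, against 10859 other genes. Nearest to Fzd1, whose own profile had a root mean square of 0.299, were Cdc14b (0.0294), Mark1 (0.0494), Tnfrsf11a (0.0516), Rhpn2 (0.0555) and Entpd1 (0.0662). Fzd7 was 29th nearest to Fzd1 (0.0891), Fzd5 248th (0.145), Fzd4 328th (0.155) and Fzd2 527th (0.176). Fzd8 (1397th) and Fzd6 (2777th) were further off. Nearest to Fzd7 were Pear1 (0.0233), Scarf2 (0.0312), Kirrel (0.0372), Mtmr11 (0.0423) and Sall2 (0.0467). Fzd1 was 50th nearest to Fzd7 (0.0891), and Fzd5 (0.147) and Fzd4 (0.157) again came before Fzd2 (0.171). The difference between the groups is part of each profile, and likeness was not tested.

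Partners of the receptors were counted over lists of known members, of which Musk, Ror1 and Ror2 stand on both the co-receptor and the cysteine-rich domain list. All the partner lists were chosen with earlier results of these data known. Their counts, beside the shares of all genes, therefore describe the lists and test no excess. Of 14 measured genes on the list of co-receptors and partner receptors, 3 rose and 0 fell in the libraries labelled Sost-/-. Of all tested genes 2.18% rose and 0.371% fell. The median log2 fold change of the 14 was 0.25. This list also holds Ndp, the gene of the ligand Norrin, and counts of co-receptors here cover the whole list. The glypicans Gpc3 and Gpc6 are cell-surface proteoglycans that bind Wnt, and Reck is a membrane-anchored partner of Wnt7 ligands. Gpc6 stood at 55.8, 45.8 and 56.6 CPM in the libraries labelled Sost-/-, against 28.0, 33.5 and 35.0 CPM in those labelled Sost+/+ (log2 fold change 0.71, SE 0.12, edgeR adjusted p = 0.0235). Reck stood at 36.5, 31.8 and 39.0 CPM in the libraries labelled Sost-/-, against 16.8, 23.6 and 22.8 CPM in those labelled Sost+/+ (0.77, SE 0.14, edgeR adjusted p = 0.0279). Gpc3 averaged 41.6 ± 9.77 CPM in the libraries labelled Sost-/-, against 18.04 ± 6.59 CPM in those labelled Sost+/+ (1.20, SE 0.25, edgeR adjusted p = 0.0448). The groups did not overlap for any of these. Lrp5 averaged 82.3 CPM in the libraries labelled Sost-/-, against 90.0 CPM in those labelled Sost+/+ (-0.13, SE 0.12). Lrp6 averaged 83.1 CPM in the libraries labelled Sost-/-, against 73.9 CPM in those labelled Sost+/+ (0.17, SE 0.089). Neither passed.

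Of 10 Dishevelled genes and their regulators, 3 rose and 0 fell (median 0.25), where 2.18% of all tested genes rose and 0.371% fell. The same shares apply to the other lists here. The 3 were the Dishevelled-binding genes Nkd1, Dact1 and Dact3. Nkd1 averaged 20.5 ± 3.07 CPM in the libraries labelled Sost-/-, against 9.79 ± 2.42 CPM in those labelled Sost+/+ (log2 fold change 1.07, SE 0.18, edgeR adjusted p = 0.0247). Dact1 (0.61, SE 0.13, edgeR adjusted p = 0.0446) and Dact3 (0.49, SE 0.11, edgeR adjusted p = 0.0488) were near the threshold. The adaptors themselves did not pass: Dvl1 was at -0.0063 (SE 0.08), Dvl2 at 0.39 (SE 0.15) and Dvl3 at 0.14 (SE 0.15) on the log2 scale. Of 8 measured planar cell polarity genes, 1 rose and 0 fell (median 0.20), and it was the cytoplasmic core gene Prickle2 (0.57, SE 0.11, edgeR adjusted p = 0.0407). No member passed among 8 measured genes of Frizzled turnover (median 0.18), a list that holds Rnf43 and Znrf3, ligases that remove Frizzled from the surface, and the R-spondins that block them. The smallest p there belonged to Rspo1 (0.67, SE 0.22, edgeR adjusted p = 0.138). In 5 genes of Wnt secretion and lipid attachment (median 0.10) none passed, and Porcn, the acyltransferase, had the smallest p (0.31, SE 0.14, edgeR adjusted p = 0.254).

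Of 12 measured genes for other proteins with a Frizzled-type cysteine-rich domain, 3 rose and 0 fell (median 0.46), where 2.18% of all tested genes rose and 0.371% fell. The secreted antagonist Sfrp4 stood at 3.13, 4.49 and 4.11 CPM in the libraries labelled Sost-/-, against 1.41, 1.63 and 1.34 CPM in those labelled Sost+/+ (log2 fold change 1.42, SE 0.22, edgeR adjusted p = 0.0187). Cpz, a carboxypeptidase, averaged 6.71 ± 1.07 CPM in the libraries labelled Sost-/-, against 2.76 ± 0.673 CPM in those labelled Sost+/+ (1.28, SE 0.21, edgeR adjusted p = 0.0235). The collagen gene Col18a1 averaged 261 ± 67.2 CPM in the libraries labelled Sost-/-, against 82.6 ± 32.04 CPM in those labelled Sost+/+ (1.66, SE 0.27, edgeR adjusted p = 0.0234). The domain belongs to the long isoform of collagen XVIII, and counts per gene do not separate isoforms. Smo, the Hedgehog transducer and nearest relative of the Frizzled receptors outside the family, did not pass (0.32, SE 0.11, edgeR adjusted p = 0.141). Of 12 measured Wnt ligands 2 rose and 0 fell (median 0.45), against the same shares of all tested genes. Wnt5a stood at 23.4, 22.8 and 21.5 CPM in the libraries labelled Sost-/-, against 13.6, 16.5 and 15.8 CPM in those labelled Sost+/+ (0.56, SE 0.10, edgeR adjusted p = 0.0288). Wnt16 averaged 9.40 ± 0.63 CPM in the libraries labelled Sost-/-, against 4.54 ± 1.47 CPM in those labelled Sost+/+ (1.05, SE 0.22, edgeR adjusted p = 0.0476). Without Sost-/- 3 and without Sost+/+ 1, 0 members of these partner lists passed in edgeR, where 10 and 0 of all tested genes passed. Without Sost+/+ 3, 0 passed of the Dishevelled, polarity, cysteine-rich domain and Wnt ligand lists, and 1 co-receptor did. Wnt ligands also came to 0 without Sost-/- 1 and without Sost-/- 2, and polarity genes without Sost-/- 1 and without Sost+/+ 2. Co-receptors came to 1 without Sost-/- 1, and Dishevelled genes to 1 without Sost-/- 2. DESeq2 called 5 co-receptors, 3 Dishevelled genes, 3 polarity genes, 6 genes of the cysteine-rich domain list and 2 Wnt ligands in all 6 libraries. Of all its tested genes it called 8.31% in either direction and 5.31% higher, more than edgeR did. Without Sost-/- 3 it called 3 co-receptors, 3 Dishevelled genes, 0 polarity genes, 2 of the cysteine-rich domain list and 2 Wnt ligands, among 371 of all genes. Without Sost+/+ 1 it called 2 co-receptors, 3 Dishevelled genes, 1 polarity gene, 3 of the cysteine-rich domain list and 2 Wnt ligands, among 631 of all genes. In DESeq2 no other library was left out, and these were chosen after the data were seen. The smooth muscle markers given above differed in the same libraries, with a larger median, and their part in any of these differences was not tested.

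**Figure D4:**
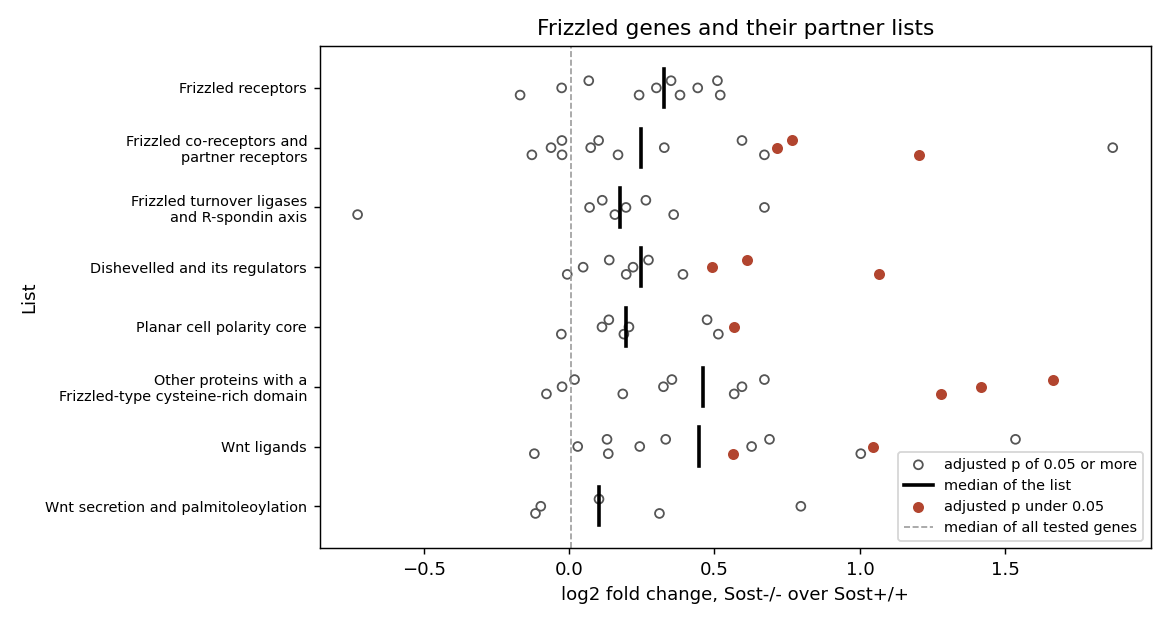
log2 fold change, Sost-/- over Sost+/+, of the measured members of the Frizzled list and of 7 partner lists. Filled points passed at an edgeR adjusted p under 0.05 and open points did not, thick bars are list medians, and the dashed line is the median of all 15096 tested genes. The Frizzled points hold no filled one and have a median of 0.33.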

How the data were processed

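RNA of 6 aortic roots was sequenced after strand-preserving library preparation, per the labels' protocols. The deposited counts are whole numbers of reads per gene symbol. Tools listed without versions, per the submitters' processing notes, were HTSeq, DRAGEN and DESeq2, and the build was mm10. The deposited normalized signal equals these counts divided by DESeq2's size factors, as computed here. Samples were grouped by the genotype label and numbered in accession order.

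Genes were kept with filterByExpr (minimum count 10, minimum total 15), then TMM scaling and the quasi-likelihood F-test of edgeR 4.0.16 followed in R 4.3.3, with Benjamini-Hochberg adjustment over 15096 genes and a threshold of 0.05. The SE is the absolute log2 fold change over the square root of F. Member counts ran from 18 to 2517 a library. Exonic lengths, coordinates and coding sequences were taken from GENCODE M21, whose GRCm38 assembly is mm10, and the translations were aligned with Biopython 1.88. Exact permutation tests used scipy 1.17.1. Log2 CPM profiles used a prior count of 2.

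The members and lists were chosen with earlier results of these data known. Named were all members, Sost, the called members of each partner list or else that of smallest p, and, for the highest member and the one of smallest p, the 5 most similar genes with a mean of at least 5 CPM. Lrp5, Lrp6, the Dvl genes and Smo were added after their values were seen. Older symbols (Gpr124, Emr1) were matched through RefSeq. Alternatives were other scalings and filters, DESeq2 1.42.0, limma-voom (limma 3.58.1), robust dispersion, the deposited normalized signal with pseudocounts of 1 and 10, and each library left out. Counts simulated for these groups and 15096 genes tested the edgeR step. In them 80 genes were altered by a log2 of 0.5, 80 by 1 and 40 by 2. The step found 27.5% of those altered by 0.5, 78.8% at 1 and 100% at 2, with 9 false among 134 calls. Recovery with a larger share of altered genes was not simulated.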

Additional observations from a re-analysis of the deposited data

How the results depend on the processing

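No paired analysis was possible because the replicate numbers were given in accession order and pair nothing. Calls depended on the tool and the libraries. edgeR called 385 genes, DESeq2 1205, of which 64.0% were higher against 85.5% in edgeR, and library totals without further scaling 755, of which 96.4% were higher. That last scaling moved the median of all genes by 0.12. Without Sost+/+ 1, DESeq2 called 631 genes (chosen after seeing the data), and with 1 library left out edgeR called 0 to 349: 0 without Sost+/+ 1 (2262 at an unadjusted p under 0.05), 10 without Sost-/- 3, 118 without Sost+/+ 3 and 218 without Sost-/- 2.

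Of the Frizzled genes 0 were called by edgeR. DESeq2 called 2 and edgeR without a filter 2, in both cases Fzd1 and Fzd7, and library totals called 3, these and Fzd2. With 1 library left out, 0 to 1 were called, Fzd1 without Sost-/- 2 (adjusted p = 0.0444). Over 18 alternatives the adjusted p ran from 0.00912 to 0.270 for Fzd7, from 0.0141 to 0.312 for Fzd1 and from 0.0495 to 0.405 for Fzd2. The 6 at an unadjusted p under 0.05 became 3 to 6 with 1 library left out, 3 without Sost+/+ 1. Signs held in every alternative for Fzd1, Fzd2, Fzd3, Fzd4, Fzd5, Fzd7 and Fzd8. For Fzd1, Fzd5, Fzd7 and Fzd8, whose groups did not overlap, leaving out 1 library could hardly reverse the sign. Fzd6 ran from -0.040 to 0.16 with 1 library left out, lowest without Sost-/- 1. Fzd9 was at 0.094 with library totals, which is -0.036 relative to the median of all genes, at 0.0698 in DESeq2 without Sost-/- 3, and from -0.17 to 0.075 with 1 library left out. Fzd10 ran from -0.64 to 0.42 with 1 library left out, and had no value at a mean CPM of at least 1.

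The difference of the summed level stayed positive in all 10 alternatives. Those that left out 1 library could not reverse its sign, since the groups did not overlap. Differences in share, in percentage points with 1 library left out, ran from -0.551 to 1.501 for Fzd2, from -0.148 to 0.144 for Fzd5, from -0.278 to 0.284 for Fzd8 and from -0.412 to 0.0395 for Fzd10.

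Among partner lists, DESeq2 called 5 co-receptor genes, 3 polarity genes and 6 genes of the cysteine-rich domain list. It called 8.31% of all its tested genes. Library totals called 3 polarity genes and 5 of the cysteine-rich domain list. Dishevelled genes numbered 2 with RLE, another scaling of the libraries, in edgeR, in limma-voom and with the deposited normalized signal. Polarity genes numbered 2 without a filter, 2 at a mean CPM of at least 1, 2 with robust dispersion and 0 in DESeq2 without Sost-/- 3. With 1 library left out in edgeR, co-receptors numbered 0 to 3, Dishevelled genes 0 to 2 and polarity genes 0 to 1. Cysteine-rich domain genes then numbered 0 to 3 and Wnt ligands 0 to 1. Causes of these shifts were not tested.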
